A study of Mus with 9 samples.

Results

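The large (60S) subunit of the cytosolic ribosome was examined in the hippocampus of mice given trigonelline (TG), an alkaloid of coffee and fenugreek. Genes were taken by symbol alone (Rpl with a number and, where present, the letter a, x or l, then Rplp0, Rplp1, Rplp2 and Rpl22l1, with symbols of pseudogenes left out). This gave 54 of the 22206 probe sets on the array, or 51 genes, of which 46 encode the usual proteins of the subunit and 5 carry the names of paralogs (Rpl3l, Rpl10l, Rpl22l1, Rpl32l and Rpl39l).

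Ribosomal proteins wrap and stabilise the ribosomal RNA, and the large subunit joins amino acids and leads the growing chain out through a tunnel. Their mRNAs are among the most abundant in most cells, and in mammals most of them start with a run of pyrimidines through which mTOR signalling adjusts their translation as a group. In neurons, local protein synthesis near synapses is part of lasting changes in synaptic strength.

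Hippocampal RNA was hybridised to Clariom S Mouse arrays, with 9 sample records in 3 groups of 3. SAMP8 is an inbred strain that ages early and loses memory, and SAMR1 is its resistant companion strain. The groups were SAMR1 mice given vehicle, SAMP8 mice given vehicle, and SAMP8 mice that received oral TG (5 mg/kg, daily) over 30 days and while behaviour was tested for 8 more. The stated age of all mice was 16 weeks, and the hippocampus was taken after the dosing and the behaviour tests. All 3 groups went through the water maze, and TG was given to SAMP8 alone, so the design has no TG-treated SAMR1 group.

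All values below are the authors' group averages of log2 signal, rounded to 2 decimals. Values of single arrays were not analysed here, so no spread between mice, no standard deviation and no test stands behind any difference, and the small number of arrays limits its precision. A difference is the average of one group minus that of another on the log2 scale, and a gene was counted as higher or lower when the averages were at least 1.5-fold apart, which is a log2 difference of 0.585. The 3 comparisons share averages with one another and are not independent. Averages of single genes are not set against each other, since probe sets differ in how strongly they bind. Sums of marker signals and ranks by mean signal do combine or rank probe sets, and carry this limit.

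The group medians over all probe sets were 6.09 in SAMR1, 6.04 in nontreated SAMP8 and 6.07 with TG. Neuronal markers of the hippocampus were at high signal in all 3 groups. Neurod6, a transcription factor of pyramidal neurons, averaged 14.86 in SAMR1, 14.85 in nontreated SAMP8 and 14.88 with TG. Of 8 hippocampal neuron markers, 0 were at least 1.5-fold higher and 2 (Prox1 and Zbtb20) at least 1.5-fold lower with TG than in nontreated SAMP8, and their mean log2 signal was 14.38 in SAMR1, 14.61 in nontreated SAMP8 and 14.35 with TG. Their summed signal is mostly that of Camk2a, which has the same average in each group. Of 6 markers of the meninges, 3 (Ogn, Dcn and Slc22a6) were at least 1.5-fold lower with TG, and the other 3 (Lum, Col1a2 and Col1a1) were higher by 0.13 to 0.46. Beside the counts of these marker lists, 4.48% of all probe sets were at least 1.5-fold higher with TG and 3.74% lower. For other lists, the log2 of summed signal in nontreated SAMP8 and with TG was 11.84 and 11.20 for the thalamus. It was 9.86 and 10.34 for the choroid plexus, 12.32 and 12.00 for microglia, and 18.74 and 18.94 for oligodendrocytes. In the thalamus list Prkcd was at least 1.5-fold lower with TG, and the median difference was -0.07. In the choroid plexus list Ttr was at 0.72 and Kl at -0.79, with a median of 0.01. Mag was at 0.71 in the oligodendrocyte list, with a median of 0.15. The part of tissue composition in the differences below was not tested, and fewer cells of a type and less RNA per cell cannot be told apart in whole tissue.

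Most large-subunit genes were higher in TG-treated SAMP8 than in nontreated SAMP8. The average was higher with TG for 53 of the 54 probe sets, where 50% of all probe sets were higher. It was at least 1.5-fold higher for 26 of them and at least 1.5-fold lower for 0, beside 4.48% and 3.74% of all probe sets. The median difference over the 54 probe sets was 0.545, with quartiles of 0.32 and 0.74, whereas the median over all probe sets was 0.01. Each difference was also taken relative to probe sets of like signal and gene span. The count at least 1.5-fold higher was then 11, the median was 0.32 and 45 of 54 stayed above 0. Shares of all probe sets in this setting are not given here, so these counts have no background beside them. The 11 were Rpl13, Rpl35a, Rpl21, Rpl8, Rpl35, Rpl19, Rpl12, Rpl9, Rpl37, Rpl37a and Rpl7a. Genes at least 2-fold higher were Rpl13, Rpl21 and Rpl35a, which makes 3 of 54 where 0.473% of all probe sets reached 2-fold. TG-treated SAMP8 had the highest of the 3 averages for 51 of the 54 probe sets, against 31.4% of all probe sets. The exceptions were Rpl10l, Rpl36 and Rpl39l, for which the SAMR1 average was the highest.

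**Figure D1:**
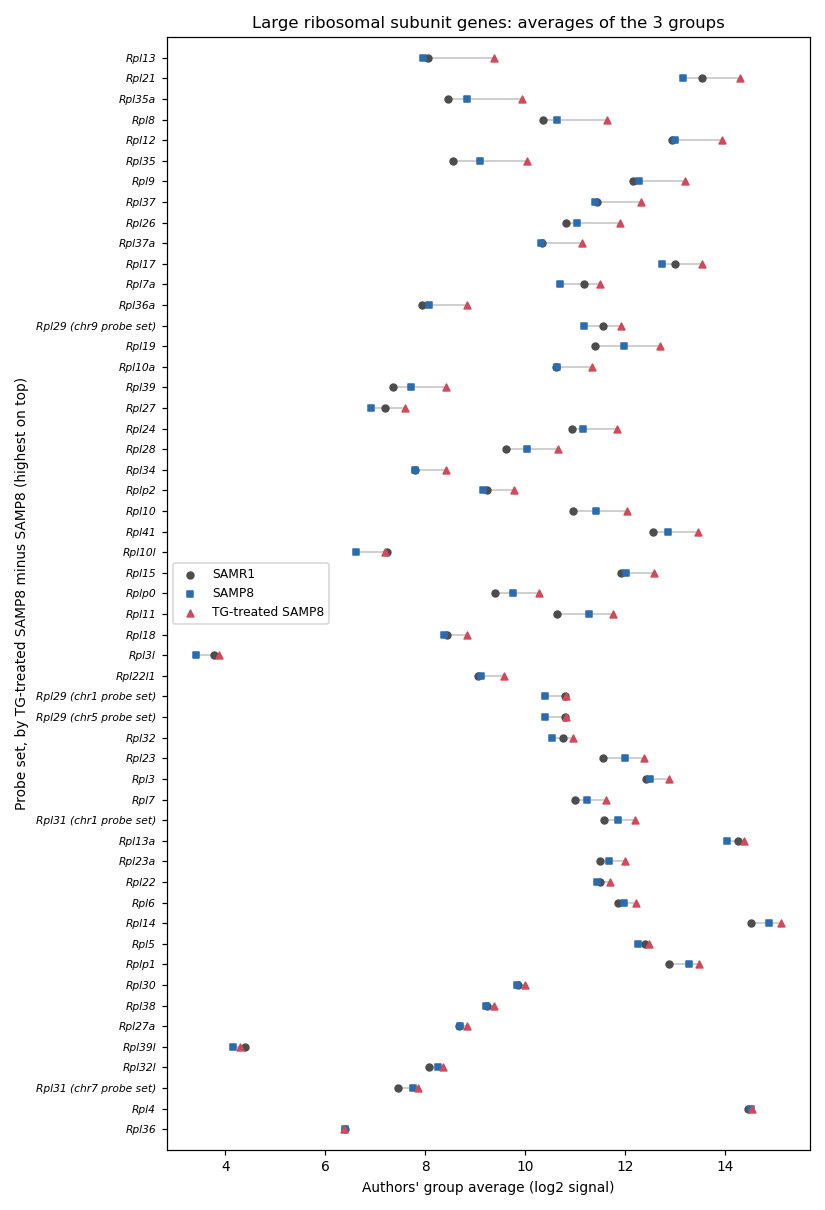
The authors' group average (log2 signal, x axis) of 53 of the 54 large-subunit probe sets (y axis) in SAMR1 (circles), SAMP8 (squares) and TG-treated SAMP8 (triangles), ordered by the difference between TG-treated and nontreated SAMP8. The triangle is the rightmost point in all lines except those of Rpl10l, Rpl36 and Rpl39l, and the other 2 symbols change places from gene to gene.

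The largest difference was that of Rpl13, in which human variants cause a skeletal dysplasia. Rpl13 (chromosome 8, 123102350 to 123105244) averaged 8.06 in SAMR1, 7.96 in nontreated SAMP8 and 9.37 with TG, and was 2.66-fold higher with TG than without it. The strains lay within 0.10 of each other, and the TG-treated group alone stood apart. Rpl21 (chromosome 5, 146832890 to 146837032) averaged 13.54, 13.17 and 14.30 in the same order, a difference of 1.13 with TG. Here nontreated SAMP8 was below SAMR1 and TG-treated SAMP8 above both. Rpl35a (chromosome 16, 33056453 to 33060189), mutated in some patients with Diamond-Blackfan anaemia, averaged 8.46, 8.84 and 9.94. Its averages stepped up from SAMR1 to SAMP8 and again to TG-treated SAMP8, so that the last was 2.79-fold above SAMR1. Rpl9, which lies near the site where translation factors bind, followed the course of Rpl13 with 12.17, 12.28 and 13.21. Rpl37 did so too, with 11.43, 11.40 and 12.32.

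The P stalk, the flexible arm that recruits elongation factors, is built of Rplp0, Rplp1 and Rplp2 on a base that includes Rpl12. All 4 averages were higher with TG, with a median difference of 0.57. For the counts of this and the next role lists, 4.48% of all probe sets were at least 1.5-fold higher with TG. Of the large-subunit probe sets, 48.1% were. Shares of all probe sets relative to like signal and span are not given. The role lists are short, and their counts do not set one place in the subunit apart. Relative to like signal and span, 1 of the 4 (Rpl12) reached the limit in place of 2, and Rplp1 was at -0.10. Rpl12 averaged 12.94 in SAMR1, 13.00 in nontreated SAMP8 and 13.95 with TG, so the strains were close and TG-treated SAMP8 was 1.93-fold above nontreated SAMP8. Rplp2 averaged 9.24, 9.15 and 9.77, the other stalk gene past the 1.5-fold limit. Rplp0, the scaffold of the stalk, averaged 9.39, 9.76 and 10.28 and stayed below the limit at 0.52. The stalk genes did not share one pattern, since Rplp1 at 12.89, 13.28 and 13.48 differed more between the strains (0.39) than between TG-treated and nontreated SAMP8 (0.20).

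Genes near the peptidyl transferase centre, where peptide bonds are made, were higher as well, with 2 of 3 past the limit, or 1 (Rpl8) relative to like signal and span. Rpl8, a universally conserved protein that touches this centre, averaged 10.36 in SAMR1, 10.64 in nontreated SAMP8 and 11.63 with TG, a 1.99-fold difference with TG. Rpl10, which is loaded last onto the maturing subunit in the cytoplasm, averaged 10.96, 11.42 and 12.03, so that a step of 0.46 between the strains and one of 0.61 with TG ran the same way. Rpl3, which reaches towards the centre, averaged 12.42, 12.50 and 12.88 and did not pass the limit. Rpl10a, the protein of the L1 stalk that guides spent tRNA away, averaged 10.62, 10.63 and 11.34. Its strains were within 0.01 of each other, and the difference with TG was 0.71, or 0.52 relative to like signal and span.

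The tunnel through which the new chain leaves, with the rim where chaperones and the signal recognition particle dock, was the longest role list. Its range was the widest of these lists, and the part of list size in this was not tested. Of 11 probe sets for 10 genes, 5 were at least 1.5-fold higher with TG, and the median was 0.35. Relative to like signal and span, 2 of 11 (Rpl35 and Rpl19) reached the limit, and the median was 0.20. Rpl35 at the rim averaged 8.56 in SAMR1, 9.10 in nontreated SAMP8 and 10.04 with TG, and Rpl26 averaged 10.82, 11.03 and 11.90. Rpl17 and Rpl39 line the tunnel. Rpl17 averaged 13.01, 12.74 and 13.54, with nontreated SAMP8 the lowest, and Rpl39 averaged 7.35, 7.71 and 8.42, with SAMR1 the lowest. At the other end was Rpl4, whose loop forms the narrow part of the tunnel. Rpl4 averaged 14.46, 14.53 and 14.54, so that all 3 groups lay within 0.08. Rpl38, needed for the translation of Hox mRNAs in the mouse embryo, averaged 9.24, 9.22 and 9.38. Rpl23a, the docking site of the signal recognition particle, differed by 0.32 with TG and Rpl22 by 0.26.

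Proteins that bridge to the small subunit had a median difference of 0.61 with TG, and 3 of 5 passed the limit. Relative to like signal and span the median was 0.32 and 1 of 5 (Rpl19) passed it. Rpl19, whose long helix extends to the small subunit, averaged 11.39 in SAMR1, 11.97 in nontreated SAMP8 and 12.70 with TG. Its strain difference of 0.58 was just below the limit, and with TG it was 0.73, which together put TG-treated SAMP8 2.48-fold above SAMR1. Rpl24 averaged 10.94, 11.16 and 11.84, on a probe set that also carries the symbol of its neighbour Zbtb11. Rpl41, the shortest of the ribosomal proteins, averaged 12.57, 12.86 and 13.47. Rpl23 (11.56, 11.99 and 12.39) and Rpl30 (a difference of 0.16) stayed below the limit.

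Rpl5 and Rpl11 carry the 5S RNA into the subunit and, when assembly is disturbed, bind Mdm2 and so protect p53. Neither passed the limit with TG. Rpl5 averaged 12.41 in SAMR1, 12.27 in nontreated SAMP8 and 12.49 with TG, a range of 0.22 over all groups. Rpl11 averaged 10.64, 11.28 and 11.75. Its larger step was the one between the strains (0.64), against 0.47 with TG. The strain difference of Rpl5 was -0.14, so these partners in one complex lay on opposite sides of 0 between the strains.

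**Figure D2:**
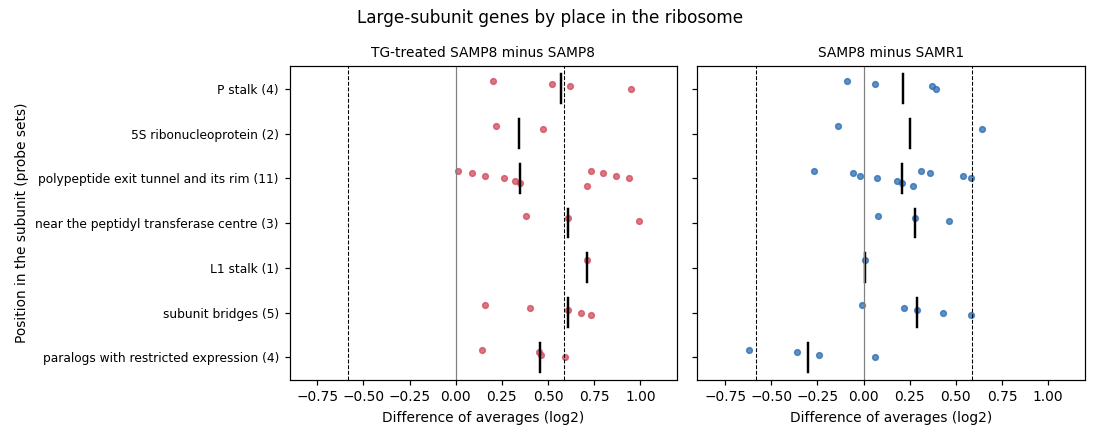
Differences of group averages (log2, x axes) for large-subunit probe sets grouped by place in the ribosome (y axis, number of probe sets in brackets), TG-treated minus nontreated SAMP8 on the left and SAMP8 minus SAMR1 on the right. Each point is 1 probe set, the black bar is the median, and the dashed lines mark 1.5-fold. On the left, every point is at or right of 0.01, and the exit tunnel spreads from 0.01 to 0.94.

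Without a place in these lists, Rpl37a, Rpl7a, Rpl36a, Rpl27, Rpl28 and Rpl34 were also at least 1.5-fold higher with TG, by between 0.62 and 0.82. Closest to the limit were Rpl10l at 0.59 inside it and Rpl15 at 0.57 outside it (11.92 in SAMR1, 12.01 in nontreated SAMP8 and 12.58 with TG), and 10 probe sets lay between 0.40 and the limit. The count of 26 therefore depends on where the limit is set. Rpl36 alone was lower with TG, at 6.40, 6.39 and 6.37, and its 3 averages were nearly equal. Other genes with small differences were Rpl27a (0.14) and Rpl6 (0.25). Rpl13a, which also silences certain mRNAs in inflammation, averaged 14.27, 14.05 and 14.38, and Rpl14 averaged 14.53, 14.88 and 15.12.

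Between the strains the large-subunit genes showed no common direction. SAMP8 was above SAMR1 for 31 probe sets and below for the other 23, or 57.4% where 49.5% of all probe sets were above. The median difference was 0.06, and -0.04 relative to probe sets of like signal. Rpl11 was the 1 gene at least 1.5-fold higher in SAMP8, beside 5% of all probe sets, and Rpl10l the 1 gene at least 1.5-fold lower, beside 6.08%, so both shares were below those of the whole array. After Rpl11, the highest differences were those of Rpl19 (0.58), Rpl35 (0.54), Rpl10 (0.46), Rpl23 (0.43) and Rpl28 (0.41). The lowest after Rpl10l were those of Rpl7a, Rpl29, Rpl21 and Rpl3l. Rpl7a averaged 11.17 in SAMR1, 10.70 in nontreated SAMP8 and 11.50 with TG, so nontreated SAMP8 was the lowest group and the others were 0.33 apart.

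TG-treated SAMP8 stood above SAMR1 by nearly the same median as above nontreated SAMP8. The median was 0.56, with 51 of 54 probe sets higher where 48.1% of all were. At least 1.5-fold higher were 27, beside 5.62% of all probe sets, and 0 were at least 1.5-fold lower, beside 4.83%. Of these 27, 19 were also among the 26 that passed the limit against nontreated SAMP8, a share of 70.4% of the first list and 73.1% of the second, and both comparisons use the TG-treated averages. Relative to probe sets of like signal and gene span, the median was 0.23 and the count 13, again without a share of all probe sets. Rpl35 and Rpl35a were highest at 1.48, followed by Rpl13 and Rpl19 at 1.31, Rpl8 at 1.27 and Rpl11 at 1.11. For 32 probe sets the SAMP8 average lay between the other 2 groups, and for 22 it was the lowest.

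**Figure D3:**
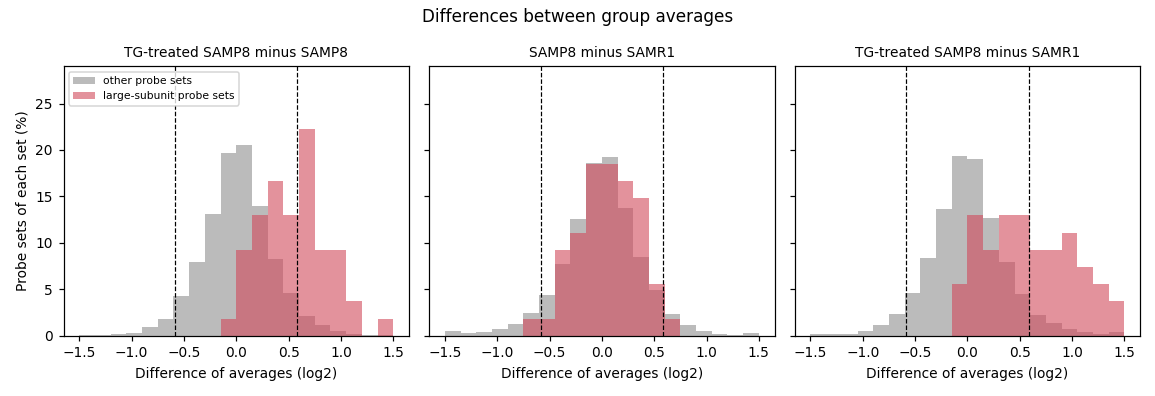
Share of probe sets (y axis, percent of each set) by difference of group averages (log2, x axis, classes 0.15 wide, with values beyond 1.5 placed in the end class) for the 54 large-subunit probe sets (red) and all other probe sets (grey) in the 3 comparisons; dashed lines mark 1.5-fold. The red bars lie to the right in the comparisons with TG-treated SAMP8 (medians 0.545 and 0.56) and over the grey bars between the strains (median 0.06).

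The paralogs did not share one pattern. Rpl3l, which replaces Rpl3 in heart and skeletal muscle, averaged 3.77 in SAMR1, 3.41 in nontreated SAMP8 and 3.87 with TG, and Rpl39l, a copy of Rpl39 used in the testis, averaged 4.39, 4.15 and 4.29. These were the 2 members in the lowest 25% of the array by mean signal, where a difference may lie within background. Rpl10l, the testis copy of the X-linked Rpl10, averaged 7.23, 6.61 and 7.20. Its nontreated SAMP8 average stood alone at the bottom, and TG-treated SAMP8 was within 0.03 of SAMR1, while Rpl10 itself stepped upwards through the groups. Testis markers were at low signal, with a mean log2 signal of 4.49 in SAMR1, 4.36 in nontreated SAMP8 and 4.61 with TG. So were the markers of heart and skeletal muscle other than Ckm, and differences in both lists may lie within background. The median difference of 4 testis markers was 0.34 with TG and -0.21 between the strains. That of 4 markers of heart and skeletal muscle was 0.38 and -0.44. The part of these in the paralogs' values was not tested. Rpl22l1, which stands in for Rpl22 in some cells, averaged 9.06, 9.12 and 9.57 and differed with TG by 0.45, against 0.26 for Rpl22. Rpl32l averaged 8.08, 8.25 and 8.35. In both, TG-treated SAMP8 was the highest group, as in most of the usual subunit genes.

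Several probe sets did not stand for a single gene. Rpl29 had 3 of them. The probe set on chromosome 9, where the gene lies, averaged 11.56 in SAMR1, 11.17 in nontreated SAMP8 and 11.91 with TG, a difference of 0.74 with TG. The probe sets placed on chromosomes 1 and 5 were listed with identical averages of 10.80, 10.39 and 10.82, and a difference of 0.43. All 3 had nontreated SAMP8 as the lowest group, and 1 of 3 passed the limit with TG. Rpl31 had a probe set at its own locus on chromosome 1 (11.58, 11.85 and 12.20) and one placed on chromosome 7 (7.45, 7.76 and 7.85), with differences of 0.35 and 0.09. Ribosomal protein genes have many processed copies in the genome, and from these averages the share of signal that comes from a copy cannot be told. Of the 54, 13 probe sets carried more than 1 symbol, of which 7 named a small nucleolar RNA from an intron of the gene. Rpl13, Rpl12, Rplp2 and Rpl10 were among these, and Rpl14 and Rpl34 each shared a probe set with a pseudogene. The median difference with TG was 0.61 for the 7 probe sets and 0.52 for the other 47.

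Genes of the same machinery that the symbol rule leaves out differed alike in part. Rpl36al, a close copy of Rpl36a, averaged 6.21, 6.06 and 6.77, near the difference of Rpl36a itself (7.93, 8.08 and 8.83). Rpl7l1, an assembly relative of Rpl7, averaged 9.46, 9.43 and 9.41, and its groups were nearly equal.

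Small-subunit genes had a similar difference with TG. Differences of this and the other related lists were not taken relative to like signal and span, and the lists were not matched in gene length. For their counts, the shares of all probe sets were 4.48% higher and 3.74% lower. Of 34 small-subunit probe sets, 18 were at least 1.5-fold higher with TG and 0 lower, with a median of 0.59. Rps21 (1.19) and Rps16 (0.99) were highest, and Rps27l (-0.50), a p53-inducible relative of Rps27, and Rps27 (-0.15) lowest. The large subunit of the mitochondrial ribosome differed less, with a median of 0.165, 6 of 48 higher and 0 lower, from Mrpl20 (0.99) and Mrpl12 (0.90) down to Mrpl3 (-0.37) and Mrpl47 (-0.50). Other mRNAs with a pyrimidine start had a median of 0.21, with 3 of 16 higher and 0 lower. The 3 were Naca (1.16), a chaperone at the tunnel exit, Eef1b2 (0.97), an elongation factor subunit, and Eif3f (0.96), an initiation factor subunit, whereas Eef2 (-0.18) and Eif4b (-0.37) were on the other side of 0.

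Before any allowance for signal and gene span, factors that build the subunit did not share the difference. Of 23 assembly factors of the 60S subunit 0 were at least 1.5-fold higher with TG and 1 lower, with a median of 0.05, from Nop2 (0.54) and Mrto4 (0.53) to Dkc1 (-0.25) and Wdr12 (-0.67). RNA polymerase I, which makes ribosomal RNA, and its factors had a median of 0.07, with 0 of 11 higher and 2 lower, from Polr1d (0.43) and Polr1c (0.34) to Taf1b (-0.64) and Taf1a (-0.68). Regulators in the mTOR and Myc pathways had a median of -0.15. Of these 14, 1 was at least 1.5-fold higher and 1 lower, beside 4.48% and 3.74% of all probe sets. The higher was Eif4ebp1 (0.63), a repressor of translation that mTOR switches off. Its signal was low, at 4.55 in SAMR1, 4.23 in nontreated SAMP8 and 4.86 with TG. The lower was Tsc1 (-0.77), an inhibitor of mTOR, while Akt1 was at 0.45 and Mtor itself at -0.54. In the p53 branch, 0 of 5 passed the limit in either direction, with Mdm2 at 0.35, Bax at 0.05, Mdm4 at -0.21 and Trp53 at -0.36.

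**Figure D4:**
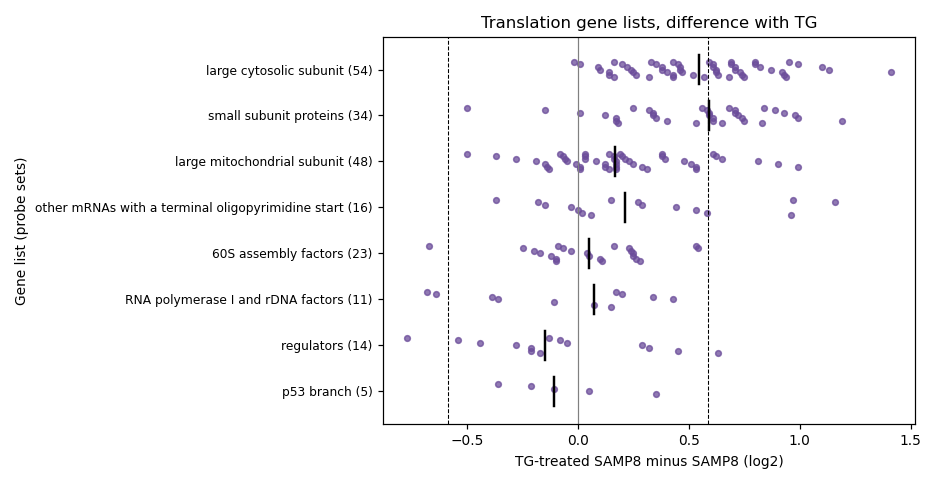
Difference between TG-treated and nontreated SAMP8 (log2, x axis) for the large-subunit probe sets and 7 lists of related genes (y axis, number of probe sets in brackets). Each point is 1 probe set, the black bar the median, and the dashed lines mark 1.5-fold. Differences are not taken relative to like signal or span. Both cytosolic subunits lie mostly between 0 and 1.2, with medians of 0.545 and 0.59, and the assembly factors centre near 0.05.

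Large-subunit genes are short and mostly of high signal, and among genes of high signal the difference with TG varied with gene length over the whole array. The genes spanned 592 to 9647 bases in the RefSeq table, with a median of 3169.5, and 41 of the 54 probe sets were in the top 25% by mean signal. Among other probe sets that bright, the median difference with TG was -0.06. It was 0.15 for the 904 of them whose gene spans less than 10 kb, of which 13.2% were at least 1.5-fold higher, and -0.10 for the 4518 with longer genes, of which 1.62% were. The 41 large-subunit probe sets of like brightness had a median of 0.57, and 48.8% were at least 1.5-fold higher. The part of gene length in the difference was not tested. Within the large-subunit genes the difference hardly followed signal (Pearson's r = 0.07, Spearman's rho = 0.03 over 54 probe sets of the same averages, as a description).

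**Figure D5:**
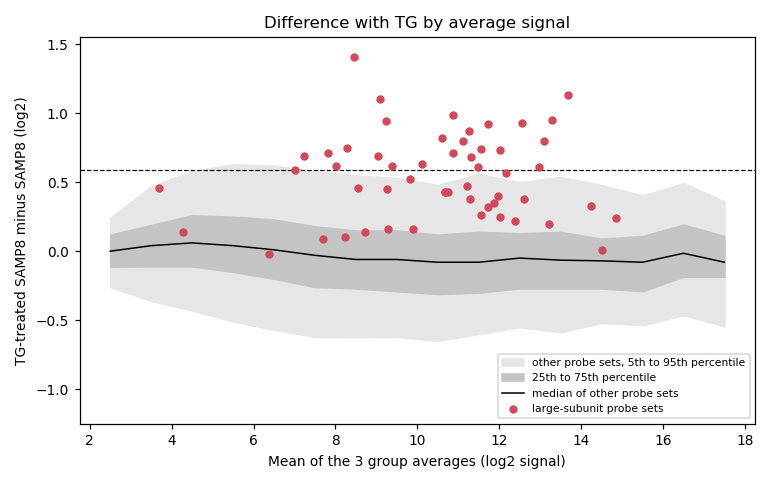
Difference between TG-treated and nontreated SAMP8 (log2, y axis) against the mean of the 3 group averages (log2 signal, x axis). Red points are the 54 large-subunit probe sets, the black line is the median of all other probe sets of like signal with bands from the 25th to 75th and 5th to 95th percentiles, and the dashed line marks 1.5-fold. All red points but 1 lie above 0, and they do so over the whole range of signal.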

How the data were processed

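Hippocampal RNA of 9 samples (3 each of SAMR1, SAMP8 and TG-treated SAMP8) was run on Clariom S Mouse arrays. The authors summarised the intensities by SST-RMA in the Transcriptome Analysis Console (version 4.0.1 in the series' design text) and deposited, in 2 tables, their group averages as log2 signal for 22206 probe sets on mm10. The tables also hold the authors' fold changes, p-values and false discovery rates of each comparison, which were not used. The design text speaks of duplicate RNA samples, while the records give 3 per group. The SAMP8 averages of both tables were identical (largest difference 0), so TG-treated SAMP8 was also set against SAMR1.

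Tables were joined on probe set ID with pandas 2.3.3 and numpy 2.4.6 in Python 3.11.15, and plots were drawn with matplotlib 3.10.9. The centring and the call at the 1.5-fold limit were checked on simulated differences. These were larger than the median here and placed at random over the array. The check therefore does not show how centring by signal and span acts on a set of short genes of high signal. Positions and spans came from RefSeq (GRCm38.p6). The chromosome in the probe set ID was that of RefSeq for 99.6% of 19885 probe sets with 1 symbol. Named genes were the 6 highest and 6 lowest in each comparison, the paralogs, genes with several or shared probe sets and the role lists, plus the 2 highest and 2 lowest of each related list. Other genes named in the text, among them Rpl6, Rpl9, Rpl15, Rpl27, Rpl37 and Rpl37a, were chosen after their values were seen. Members and lists were chosen with earlier results of these data known. No test was run. Alternatives were other fold limits, centring by group median, signal or gene span, and narrower choices of probe sets. A search for pyrimidine starts and a comparison of paralog proteins were not run. The values of some single genes are not reported here, though they are part of the counts.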

Additional observations from a re-analysis of the deposited data

How the results depend on the processing

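No paired analysis was possible because only the authors' group averages were used, in which the arrays are not told apart, and for the same reason no replicate was left out. Of the alternatives, the centring by gene span, alone and with signal, was chosen after seeing the data. Where paralogs were left out, these were the restricted ones (Rpl3l, Rpl10l, Rpl22l1 and Rpl39l), and Rpl32l was kept. The medians of both comparisons with TG-treated SAMP8 stayed above 0 under each alternative, and that between the strains did not. Shares of all probe sets under the alternatives are not given below, so the counts there have no background beside them. No change of a count with the limit is read as a result about these genes.

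Between TG-treated and nontreated SAMP8, the 26 probe sets at least 1.5-fold higher became 41 at a limit of 1.2-fold and 3 at 2-fold. Relative to probe sets of like signal and span the count was 11, and 12 where those held no cytosolic ribosomal protein. It was 23 with group centring, 27 relative to like signal and 20 relative to like span. Narrower choices gave 19 of 41 with 1 symbol, 25 of 51 genes, 25 of 50 without the restricted paralogs and 26 of 52 without the dimmest. The median of 0.545 was 0.515 with each group centred on its median, 0.59 relative to like signal, 0.52 over probe sets with 1 symbol, 0.57 with 1 value per gene, 0.59 without the restricted paralogs, 0.58 without the dimmest 25% of probe sets, 0.475 relative to like span, and 0.32 and 0.37 relative to both.

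Between the strains, the 1 higher probe set became 15 at 1.2-fold, 0 at 2-fold, 3 with group centring, 2 relative to like span and 0 relative to like signal or both. The 1 lower became 9 at 1.2-fold, 2 relative to like signal and 0 at 2-fold, with group centring, without paralogs or relative to span or both. The median of 0.06 was 0.11, -0.04, 0.07 and 0.075 with group centring, like signal, 1 symbol and no paralogs, and 0.105, -0.0225 and -0.015 relative to span and both.

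Between TG-treated SAMP8 and SAMR1, the 27 higher probe sets became 40 at 1.2-fold, 12 at 2-fold and 13 and 14 relative to both. The count was 27 with group centring, 24 relative to like signal and 26 relative to like span. Narrower choices gave 20 of 41 with 1 symbol, 26 of 51 genes, 27 of 50 without the restricted paralogs and 27 of 52 without the dimmest. The median of 0.56 was 0.58 with group centring, 0.52 relative to like signal, 0.53 with 1 symbol, 0.59 per gene and without the dimmest, 0.605 without paralogs, 0.545 relative to span, and 0.23 and 0.2525 relative to both. The cause of these changes was not tested. Signals near background, as for Rpl3l and Rpl39l, limit what their differences show.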

Other observations

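Probe sets named for copies and relatives of large-subunit genes were read beside them, without a test. Rpl37rt, a retrocopy of Rpl37, averaged 10.77 in SAMR1, 11.19 in nontreated SAMP8 and 11.91 with TG, a difference of 0.72 with TG, and Rpl31-ps12 averaged 9.41, 9.82 and 10.43, a difference of 0.61. Both stepped upwards through the groups, with TG-treated SAMP8 the highest. Whether their signal comes from the copies or from the parent mRNAs was not tested. Rplp2-ps1, on a probe set shared with Wdr89, differed by 0.02 with TG and by 0.27 between the strains.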
